A study of Mus musculus with 12 samples.

Results

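Broadly expressed genes offer a low reference on an array built around polycomb-regulated loci, and 5 of them, Actb, Gapdh, Rbm33, Kif18b and Rad21, were followed here. They make 5 of the 121 genes with a measured promoter or gene body. All probes outside control spots were taken whose mm9 position lay in Actb or Gapdh with 5 kb on each side, at chr5:28638661-28750000 around Rbm33, at chr11:102764914-102787894 around Kif18b or at chr15:51782821-51825112 around Rad21, which gave 2231 of 48316 probes. Rbm33 had 1215 of them, Rad21 455, Kif18b 255, Gapdh 156 and Actb 150. The array was a custom Agilent tiling design with probes of 60 bases at a median step of 60 bp, hybridised with DNA from MNase-based native ChIP for H3K27me3 and with the matching input, both taken from 46c mouse ESCs, a line derived from E14tg2A that carries GFP in the Sox1 locus, or from NPCs made from them. The 6 conditions were ESCs labelled eGFP, 4 ESC populations that received a TALE-Vp64 construct (tShh-Vp64, tSBE2-Vp64, tSBE6-Vp64, and tSBE(6+2)-Vp64 for both enhancers), and NPCs after N2B27 differentiation, whose day the labels do not give. The TALE-Vp64 constructs are DNA-binding proteins fused to a transcriptional activator and were directed to the Shh promoter or to the Shh brain enhancers SBE6 and SBE2, so none of the 5 genes was a target. Transfected ESCs were sorted for eGFP according to the methods of the study. Each condition had 2 arrays, R1 and R2, which were averaged to 1 sample because the labels of 3 conditions name them as arrays of the same biological replicate. Only the spread between 5 ESC populations of different treatment was therefore available, and NPCs were 1 sample.

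H3K27me3 is the histone mark written by Polycomb Repressive Complex 2 and is found over developmental regulators that are silent or poised in ESCs, whereas promoters of constantly transcribed genes with CpG-rich starts usually lack it. Actb encodes cytoplasmic beta-actin and Gapdh a glycolytic enzyme, and both are common references for expression. Rbm33 encodes an RNA-binding protein and lies beside Shh. Kif18b encodes a kinesin of the mitotic spindle, and Rad21 encodes a subunit of cohesin, the ring complex that holds sister chromatids and forms chromatin loops. Expression was not measured on these arrays, so the name broadly expressed is background and not a result.

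The sequences upstream of the starts are shown because CpG content is tied to where polycomb binds and because the array signal correlated with GC content within these regions. They were copied from the RefSeq promoters of GRCm38.p6, which held 3 of the 5 genes, and were found by exact match in mm9. They end at the base before the RefSeq start, or for Rbm33 before the earlier annotated start, and capitals mark CpG dinucleotides.
Rbm33, mm9 chr5:28643479-28643660, plus strand: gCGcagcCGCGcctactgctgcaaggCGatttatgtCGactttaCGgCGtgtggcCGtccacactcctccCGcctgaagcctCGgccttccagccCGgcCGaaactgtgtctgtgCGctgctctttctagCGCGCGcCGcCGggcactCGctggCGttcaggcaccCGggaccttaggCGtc
Gapdh, mm9 chr6:125115792-125116041, minus strand: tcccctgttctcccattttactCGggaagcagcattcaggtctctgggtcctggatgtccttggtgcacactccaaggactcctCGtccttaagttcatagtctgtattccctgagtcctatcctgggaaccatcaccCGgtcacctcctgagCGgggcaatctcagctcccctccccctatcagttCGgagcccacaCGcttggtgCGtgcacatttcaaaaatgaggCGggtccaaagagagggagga
Kif18b, mm9 chr11:102786439-102786688, minus strand: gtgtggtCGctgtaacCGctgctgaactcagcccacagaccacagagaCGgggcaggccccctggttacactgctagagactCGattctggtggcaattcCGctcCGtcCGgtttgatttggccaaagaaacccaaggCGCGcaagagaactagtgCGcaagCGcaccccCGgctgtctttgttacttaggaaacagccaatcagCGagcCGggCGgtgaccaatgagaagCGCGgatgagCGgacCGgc
The Rbm33 sequence held 22 CpG in 182 bases, more than 94.7% of 32851 RefSeq promoters over the same window. The Kif18b sequence held 19 CpG in 250 bases, more than 80.3% of promoters, and the Gapdh sequence held 8, more than 57.0%. The median promoter held 6 CpG in 250 bases. On both strands, CCAAT and GGGCGG were found in the Kif18b sequence only, and over 250 bases they were present in 33.9% and 32.7% of all promoters. TATAAA was found in none of the 3 sequences and was present in 12.4% of all promoters over 250 bases. The Gapdh sequence precedes the start of the shorter transcript. It lies in an intron of a longer annotated transcript, whose start is 694 bp further upstream and was the one used for the promoter window below.

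Values are log2 ratios of the 2 channels, centred so that the median probe of each array is 0. The labels assign Cy3 to ChIP and Cy5 to input, but the ratios that the authors deposited correlated positively with log2 Cy5 over Cy3, at 0.901 to 0.946 across probes. Signs here follow the deposited ratios, so a negative value means less H3K27me3 than the median probe, and if the dye labels hold every sign is the opposite. The regions around Shh, with 12390 probes, and around Npas3, with 9836 probes, weigh most in that median. As a check of the cell labels, the promoter of Pou5f1, the pluripotency factor Oct4, went from -0.41 in ESCs to 1.88 in NPCs (limma, adjusted p = 9.28e-07), and that of Nes, a neural progenitor gene, from 0.71 to -0.05 (adjusted p = 0.00279). These are levels of H3K27me3 and not of expression, the check takes the sign used here as given, and Sox1 had no promoter window.

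All 5 promoters and all 5 gene bodies lay below the array median in ESCs. Promoters were the probes within 1000 bp of the TSS and gene bodies the rest of the gene, and each of the 10 features passed limma at an adjusted p of 0.05. Of all 209 features, 28.2% were called lower in the same way and 55.0% higher. Split by kind, 25.7% of promoters were called lower and 54.0% higher, and 31.2% of bodies were called lower and 56.2% higher. The mean over the 5 ESC populations was -0.83 ± 0.19 (SD, n = 5) at the Kif18b promoter, -0.68 ± 0.09 at Rad21, -0.67 ± 0.12 at Rbm33, -0.55 ± 0.18 at Actb and -0.33 ± 0.13 at Gapdh. The promoters of Kif18b, Rad21 and Rbm33 could not be ordered, because neighbours differed by 0.15 ± 0.27 and by 0.01 ± 0.11 (SD over 5 populations). Actb was higher than Rbm33 by 0.11 ± 0.10 and Gapdh higher than Actb by 0.23 ± 0.09, in 5 of 5 populations each. Adjusted p-values of the 5 promoters ran from 1.41e-06 at Rad21 to 0.000865 at Gapdh.

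The gene bodies reached lower. Rad21 had the lowest mean of all 209 features, -1.17 ± 0.10 (SD, n = 5), with -1.11 in eGFP ESCs, -1.12 with tShh-Vp64, -1.21 with tSBE6-Vp64, -1.08 with tSBE2-Vp64 and -1.32 with tSBE(6+2)-Vp64. All 5 values were below every value of the Gapdh, Kif18b and Actb bodies. The Rbm33 body followed at -0.97 ± 0.09, with a lowest value of -1.09 that overlapped the highest of Rad21, yet within each population it was higher than Rad21, by 0.20 ± 0.03 in 5 of 5. Gapdh was at -0.82 ± 0.23 and Kif18b at -0.70 ± 0.16, and neither pair of neighbours, Rbm33 and Gapdh or Gapdh and Kif18b, was separated in all populations (4 of 5 and 3 of 5). The Actb body stood apart from the other 4 at -0.19 ± 0.12. It was at -0.04 in eGFP ESCs, -0.32 with tShh-Vp64, -0.31 with tSBE6-Vp64, -0.14 with tSBE2-Vp64 and -0.14 with tSBE(6+2)-Vp64, below 0 on 12 of 12 arrays. Its adjusted p was the highest of the 10 (0.0202), it was called in 17 of 23 alternatives, and the call was lost without tShh-Vp64 (-0.16, adjusted p = 0.0847), without tSBE6-Vp64 (-0.16, adjusted p = 0.0923) and without array R2 (-0.15, adjusted p = 0.0547). It was lost as well over bright probes (-0.11, adjusted p = 0.0993), with the median over probes (-0.12, adjusted p = 0.114) and with a promoter window of 2000 bp (-0.15, adjusted p = 0.0589).

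**Figure D1:**
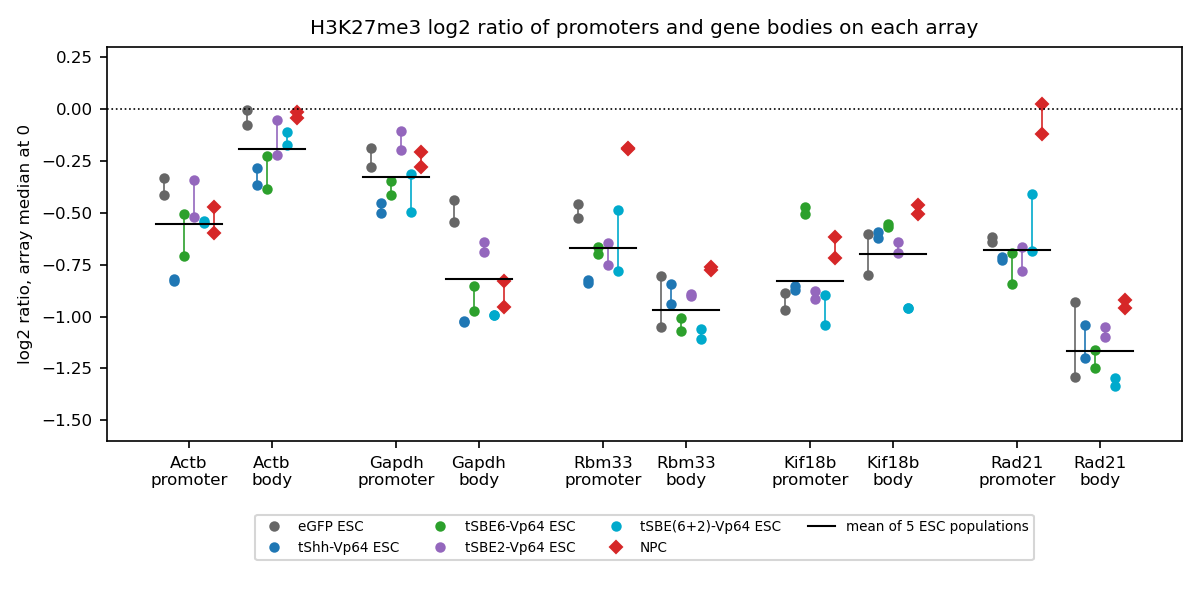
Log2 ratio (array median at 0) of the promoter and the gene body of each gene on every array: circles are ESC arrays coloured by population, red diamonds are the NPC arrays, lines join R1 and R2 and black bars are the mean of 5 ESC populations. All values but 1 NPC array at the Rad21 promoter (0.03) lie below 0, and the Actb body is the feature nearest to 0.

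Dim probes bear on these levels. Cy5 is the numerator of the ratio, so a probe with a low ratio can also be dim in Cy5. Leaving out dim probes removes such low ratios too, and cannot separate a dim probe from a low level. In the Rbm33 region 65.3% to 70.0% of probes, and in the Rad21 region 65.9% to 71.9%, were well above background in the Cy5 channel on slide 1, against 85.7% to 89.6% over the whole array. The Actb region reached 94.0% to 96.7%. Over the probes that were bright and not saturated in both channels on every array, 407 of 1085 in the Rbm33 body and 102 of 296 in the Rad21 body, the means were -0.47 and -0.58 and were still called. The Gapdh body was at -0.55 over such probes and the Rad21 promoter, with 8 of 21 probes left, at -0.15 (adjusted p = 0.0375). Rad21 was then the 7th lowest of 203 features, and in the deposited ratios the 11th lowest of 209, so its place at the bottom changed with the treatment of dim probes and with the ratios used.

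Beside genes known for polycomb, the 5 promoters were at the opposite end of the range. Of 16 listed polycomb targets, 15 promoters were called higher than the array median and none lower, with a median of 0.95, against -0.67 for the 5 promoters here and 0.44 for all 113 promoters. The lowest of the 16, Nog, a BMP antagonist, was at -0.11, above the highest of the 5, Gapdh, at -0.33. The Shh promoter, which lies in the tiled region of Rbm33, was at 1.43 ± 0.20 (SD, n = 5), that of Six3, a forebrain transcription factor, at 1.52 ± 0.33 and that of Hoxd10 at 2.05 ± 0.09. Gene bodies of the list had a median of 1.92, against -0.82 for the 5 bodies and 0.40 for all 96. These are descriptions, with no test between lists. The members and both lists were chosen with earlier results of these data known, so their separation is not independent support. Other genes listed as broadly expressed were on the same side. Of 29 listed, 8 had a promoter window, of which 6 were called lower and none higher, with a median of -0.39. All 8 gene bodies were called lower, with a median of -0.77. Smc3, another cohesin subunit, had the 2nd lowest body (-1.06 ± 0.10) and Ncapd2, a condensin subunit next to Gapdh, the 4th lowest (-0.90 ± 0.13). The promoters of Nom1 (-0.07, adjusted p = 0.313) and Myc (-0.19, adjusted p = 0.0598) were not called.

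**Figure D2:**
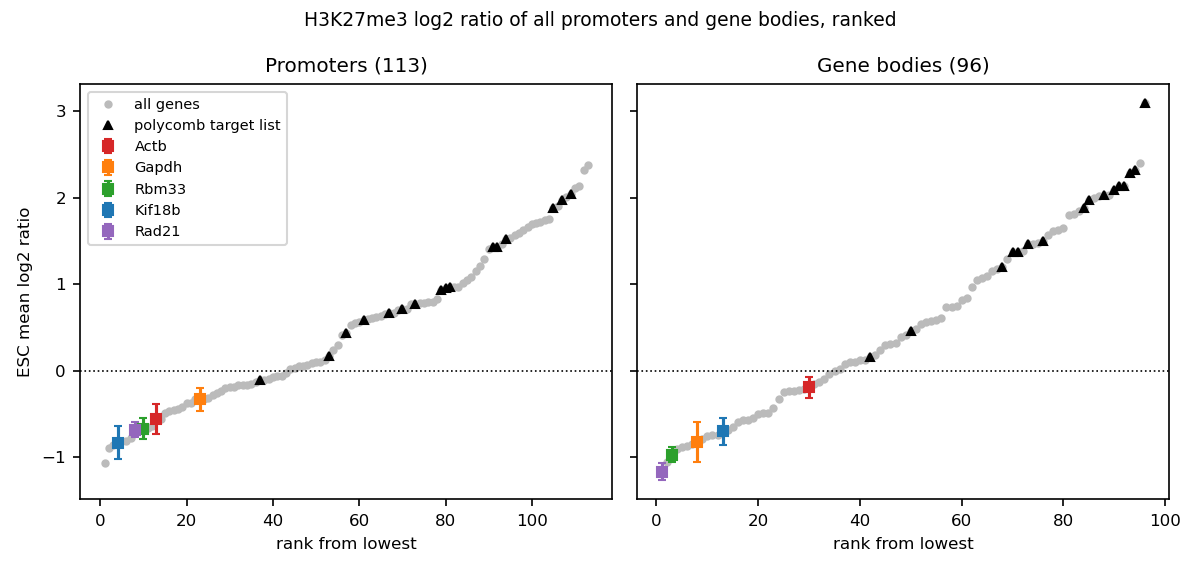
ESC mean log2 ratio of every promoter (left, 113) and gene body (right, 96) against its rank from the lowest, with the 5 genes as coloured squares (bars, SD over 5 ESC populations) and the polycomb target list as black triangles. The promoters of the 5 genes hold ranks 4 to 23 and the bodies ranks 1 to 30, and every listed polycomb target lies above them.

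Promoters were compared with gene bodies within each gene to ask whether a low level was even along it. The promoter was higher than the body in Gapdh, Rad21 and Rbm33, lower in Actb, and not called in Kif18b. Among all 88 genes with both features, 38.6% were called higher at the promoter and 36.4% lower, so 3 and 1 of 5 are counts near the background. The standard errors and p-values rest on the spread between ESC populations. Effects of probe sequence are the same on every array and are not part of that spread. The difference was 0.49 ± 0.07 (SE) in Gapdh (adjusted p = 2.16e-05), with 0.26 in eGFP ESCs as the lowest of the 5 populations and 0.59 as the highest. In Rad21 it was 0.49 ± 0.07 (adjusted p = 4.01e-05), between 0.35 and 0.77. In Rbm33 it was 0.30 ± 0.07 (adjusted p = 0.00211), between 0.06 and 0.45, and on bright probes it was 0.09 and not called (adjusted p = 0.305). All 12 arrays had the same sign in each of these 3 genes. The window changed their sizes, since the difference was 0.68 in Rbm33 with 500 bp and 0.17 in Rad21 with 2000 bp on each side of the TSS, and bright probes gave 0.27 in Gapdh. Actb had a difference of -0.37 ± 0.06 (adjusted p = 0.000121), between -0.50 and -0.29, with all 12 arrays below 0. Kif18b had -0.13 ± 0.07 (adjusted p = 0.101), with 9 of 12 arrays below 0. It turned to 0.11 with a window of 500 bp around the TSS (adjusted p = 0.178) and was called lower in 9 of 23 alternatives, such as without tSBE6-Vp64 ESCs (-0.18, adjusted p = 0.0339).

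Promoter probes were richer in GC than body probes in all 5 genes, whichever way the promoter differed. In the genes with a higher promoter, GC content was 57.2% and 42.1% in Rbm33, 58.6% and 41.2% in Rad21 and 57.4% and 52.6% in Gapdh. It was also higher at the promoter in Actb (60.6% and 53.7%) and Kif18b (53.1% and 49.6%), whose differences were below 0. Within the 5 regions the log2 ratio correlated with probe GC content at 0.06 to 0.53 on single arrays, against -0.06 to 0.16 over all probes. These correlations are across probes, which overlap and share an array. With a trend on GC content removed, the promoter was higher by 0.45 in Gapdh, 0.37 in Rad21 and 0.22 in Rbm33 and differed by -0.40 in Actb, each still called, and Kif18b was called lower (-0.16, adjusted p = 0.0483). The part of GC content beyond that trend was not tested. The Gapdh difference also rests on the choice of start. With the RefSeq start of Gapdh, the promoter level was -0.58 and the difference 0.28 (adjusted p = 0.000928).

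Exons and introns of the gene bodies differed too. Probes centred in exons had a higher ESC mean than those in introns in Kif18b (-0.51 and -0.75), Rad21 (-0.92 and -1.20), Rbm33 (-0.79 and -0.99) and Actb (-0.13 over 33 probes and -0.90 over 3), but not in Gapdh (-0.90 and -0.77). Exon probes were richer in GC than intron probes in all 5, such as 45.2% and 40.5% in Rad21 and 55.3% and 47.9% in Kif18b. The Actb body was almost all exon, 33 of 36 probes. Actb and Gapdh have processed copies elsewhere in the genome whose DNA can bind exon probes, which was not tested.

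Within 1000 bp of the starts the level was uneven. In Rad21 the mean was -1.21 from 1000 to 500 bp upstream, -0.96 in the last 500 bp before the TSS, -0.11 in the first 500 bp after it and -0.56 in the next 500 bp. Rbm33 had the same shape, with -0.94, -0.52, 0.02 and -1.25. In both genes the first 500 bp after the TSS was the highest of the 4 bins and also the richest in GC, at 75.3% in Rad21 and 77.2% in Rbm33. Actb rose along the window, from -0.82 to -0.25, as GC content rose from 52.5% to 70.3%. Gapdh was lowest after the annotated start (-0.64) and Kif18b was highest just before it (-0.44), where its lowest bin, further upstream (-1.78), held 3 probes. These bins hold 3 to 9 probes and were not tested.

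**Figure D3:**
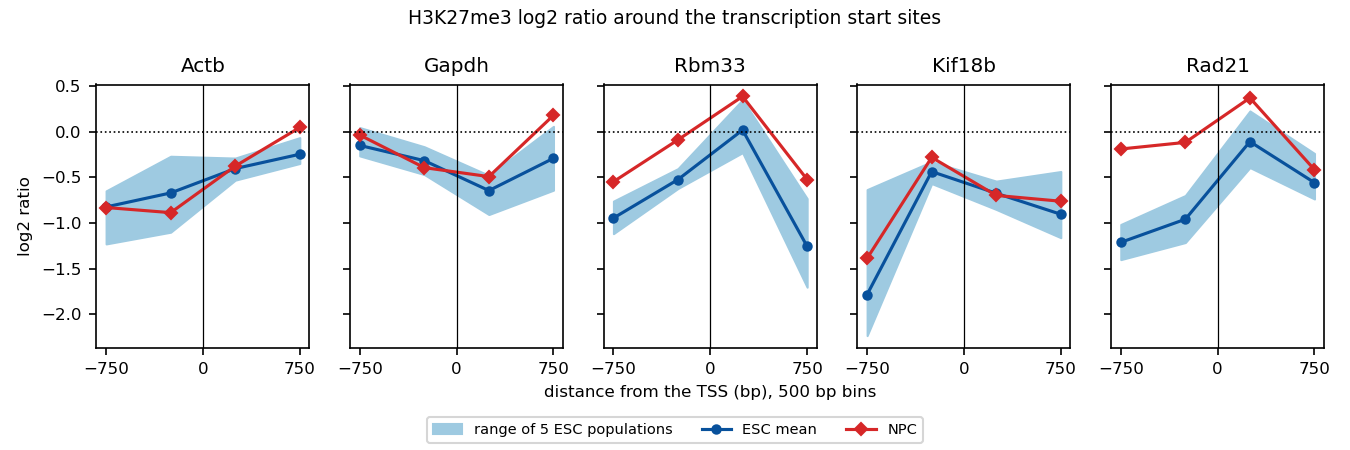
Mean log2 ratio in 500 bp bins from 1000 bp upstream to 1000 bp downstream of the TSS (x axis, bp, in the direction of transcription) of each gene: blue points are the mean and the blue band the range of 5 ESC populations, red diamonds are NPCs. Rbm33 and Rad21 peak in the first 500 bp after the TSS, at 0.02 and -0.11 in ESCs. NPCs lie above the ESC band in every bin of Rbm33 and in all but the last bin of Rad21.

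Along the genes, the low level was seen in every 2 kb tile, although the first 500 bp of Rbm33 was at 0.02. The array was cut in 2 kb tiles with at least 3 probes, and 104 tiles had their centre in the 5 regions. Of these, 101 were called lower than the array median in ESCs and 1 higher, where 40.0% of all 2289 tiles were called lower and 32.2% higher. All 84 tiles that touched one of the genes were called lower. So were 17 of the 20 tiles outside the genes, so the low level was not confined to them. The 3 lowest lay in Rad21, at chr15:51802000-51803999 (-1.45, adjusted p = 4.08e-09) and chr15:51806000-51807999 (-1.45, adjusted p = 1.13e-08), and in an intron of Rbm33, at chr5:28648000-28649999 (-1.39, adjusted p = 3.39e-08). The 2 tiles of Rad21 held exon sequence.

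The edges were sharpest at Rbm33. The only tile called higher was upstream of its start, at chr5:28638000-28639999 (0.47, adjusted p = 0.000444), and was followed by 0.16, by -0.40 at the TSS and by -0.96 in the next tile, within an intron. The 46 probes upstream had a mean of 0.21 ± 0.25 (SD, n = 5) against -0.97 in the body, higher on 12 of 12 arrays. Downstream of Rbm33, on the side of Shh, the mean was -0.58 ± 0.10, higher than the body by 0.38 ± 0.05 and again on 12 of 12 arrays. Rad21 was similar at its 3′ side. The level stayed at -1.14 and -1.06 in the 2 tiles past the gene and then came up to -0.63 and -0.18, and the downstream probes were higher than the body by 0.48 ± 0.04 on 12 of 12 arrays. The 11 probes upstream of Rad21 differed from its body by 0.05 ± 0.17. Kif18b was higher downstream by 0.30 ± 0.07 on 12 of 12 arrays. Its upstream flank held only 4 probes, at -1.55 in eGFP ESCs, 0.28 with tSBE6-Vp64 and 0.54 in NPCs. The long noncoding gene Gm17536, on the opposite strand, spans the whole of Kif18b, so their levels cannot be told apart. Around Gapdh the flanks did not differ in one direction from the body, at 0.02 ± 0.15 upstream and 0.05 ± 0.12 downstream. They hold the ends of Ncapd2 and Iffo1, which were low as well. In Actb the order was the opposite, since both flanks were lower than the body on 12 of 12 arrays, by -0.30 ± 0.13 upstream and -0.53 ± 0.06 downstream. The flanks were compared without a test across features.

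**Figure D4:**
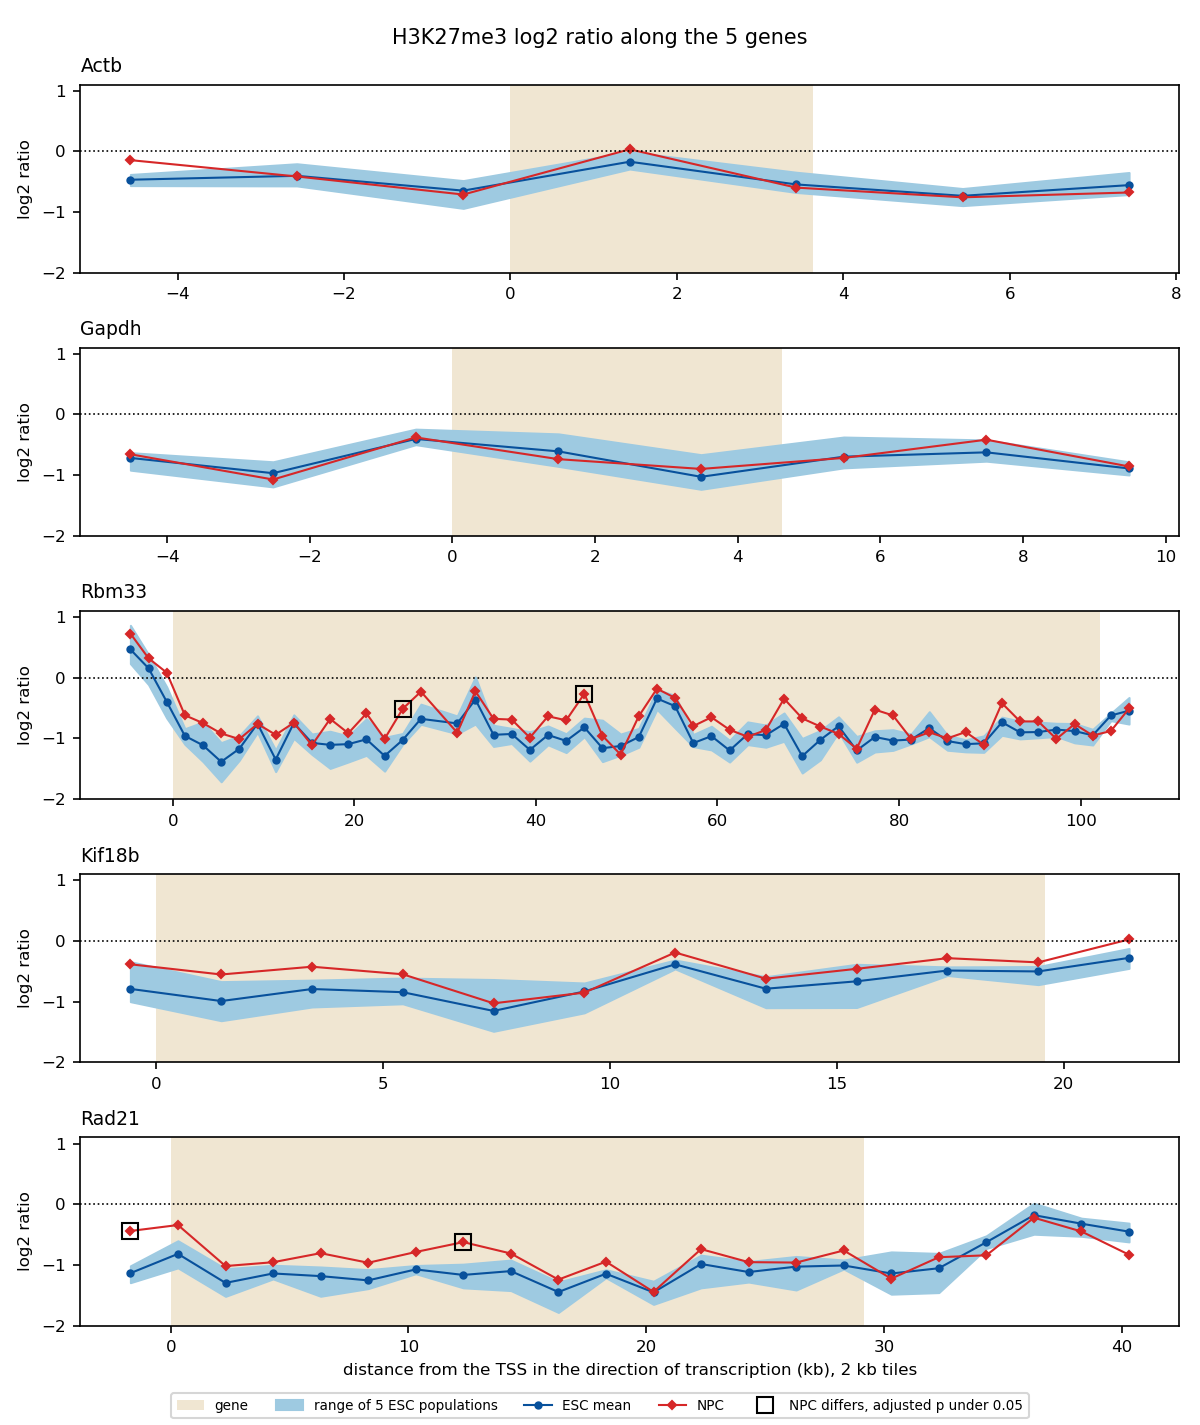
Mean log2 ratio in 2 kb tiles along each region (x axis, distance of the tile centre from the TSS in kb, in the direction of transcription): shading marks the gene, blue points are the mean and the blue band the range of 5 ESC populations, red diamonds are NPCs and black squares mark tiles with NPC minus ESC at an adjusted p under 0.05. The level drops from 0.47 upstream of Rbm33 to about the level of its body past the TSS, and 4 tiles are marked, 2 in Rbm33 and 2 in Rad21.

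NPCs were compared with the 5 ESC populations to ask whether the genes kept their low level on differentiation. Of the 10 features, the promoters of Rad21 and Rbm33 were called higher in NPCs and none was called lower, where 48.3% of all 209 features were called higher and 7.66% lower (47.8% and 8.85% of promoters, 49.0% and 6.25% of bodies). For promoters, 2 of 5 called higher is a count near the background. The median difference was 0.16 for the 5 promoters and 0.20 for the 5 bodies, against 0.45 for all promoters and 0.36 for all bodies, and 0.04 for all 2 kb tiles. The other 8 features differed by -0.07 (Gapdh body) to 0.23 (Rad21 body), with adjusted p-values of 0.247 to 0.933, which does not show that they were equal. Standard errors of the differences were 0.15 to 0.21 over the 10 features. Over the 8 other promoters listed as broadly expressed the median difference was 0.17, from -0.01 at Iffo1 to 0.68 at Lmbr1. The difference at the Kif18b body, 0.21, was 0.47 with the slide as a term, which sets NPCs against tSBE(6+2)-Vp64 ESCs alone. It was called higher after loess (0.29, adjusted p = 0.0459).

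The Rad21 promoter was at -0.63 in eGFP ESCs, -0.72 with tShh-Vp64, -0.77 with tSBE6-Vp64, -0.72 with tSBE2-Vp64 and -0.55 with tSBE(6+2)-Vp64, and at -0.05 in NPCs. Both NPC arrays (-0.12 and 0.03) were above all 10 ESC arrays, of which the highest was at -0.41. NPCs were higher by 0.63 ± 0.15 (SE, adjusted p = 0.00456). Against tSBE(6+2)-Vp64 ESCs, the only ESC population on the slide of the NPCs, they were higher by 0.50. This is a difference between single samples. A fit with the slide as a term takes its error only from the populations on the other slide. The Rbm33 promoter was at -0.49 in eGFP ESCs, -0.83 with tShh-Vp64, -0.68 with tSBE6-Vp64, -0.70 with tSBE2-Vp64 and -0.63 with tSBE(6+2)-Vp64, and at -0.19 in NPCs. Both NPC arrays were at -0.19, above the highest ESC array at -0.46. The difference was 0.48 ± 0.16 (adjusted p = 0.0279) and was not called within the slide (0.44, adjusted p = 0.0909), without tSBE2-Vp64 ESCs (0.47, adjusted p = 0.0629) or without array R1 (0.43, adjusted p = 0.0659).

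Both calls were lost when dim probes were left out, a filter that also removes probes with low Cy5, the numerator of the ratio. Over bright probes the difference was 0.22 at Rad21 (8 probes, adjusted p = 0.271) and 0.15 at Rbm33 (9 probes, adjusted p = 0.488), and in the deposited ratios it was 0.23 and 0.20 (adjusted p = 0.0617 and 0.177). The median over probes gave 0.37 and 0.33 (adjusted p = 0.0843 and 0.109). With the GC trend removed, the difference was 0.42 at Rad21, still called (adjusted p = 0.0105), and 0.25 at Rbm33, not called (adjusted p = 0.104). In all, the Rad21 call was kept in 20 and the Rbm33 call in 12 of 23 alternatives. Not all 23 could change the result. No RefSeq start was available for Rad21, and dropping the probe minimum left both differences as they were. On slide 2, which held NPCs and tSBE(6+2)-Vp64 ESCs, 50.1% to 64.6% of probes in the Rad21 region and 48.9% to 62.8% in the Rbm33 region were well above background in Cy5. The part of this loss of signal in the differences was not tested.

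**Figure D5:**
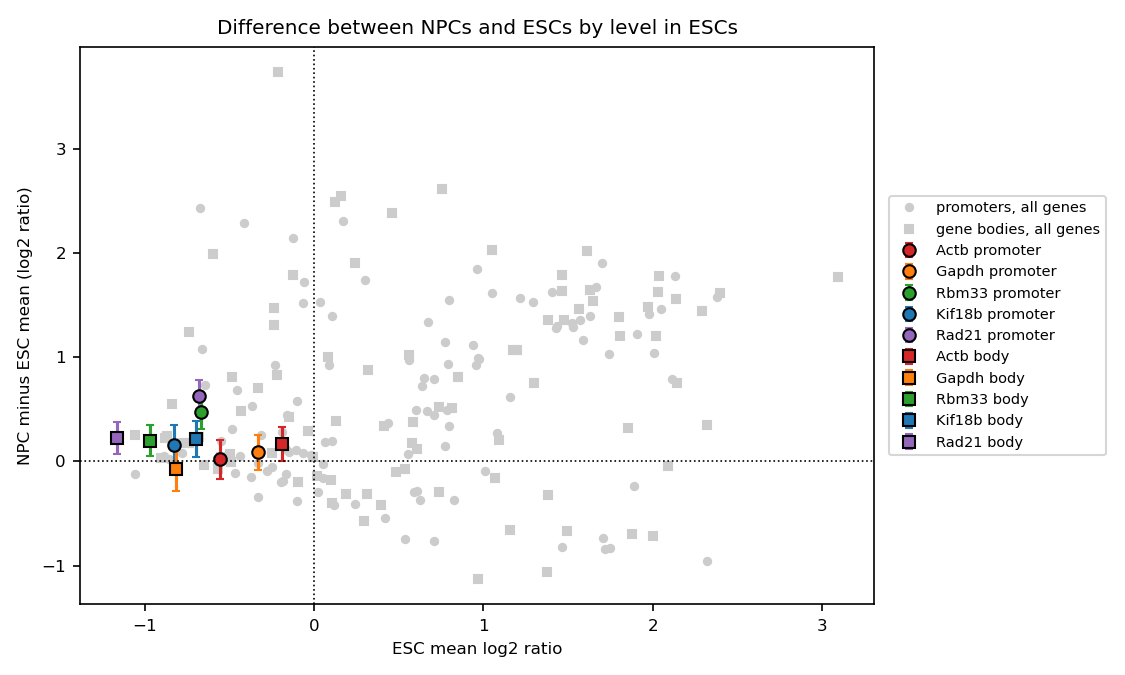
NPC minus ESC mean (log2 ratio, y axis) against the ESC mean (x axis) for all 209 features in grey, circles for promoters and squares for gene bodies, with the 5 genes in colour (bars, SE of the difference). The Rad21 promoter (0.63) and the Rbm33 promoter (0.48) are the highest of the 10, and many features of other genes differ by more.

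NPC minus ESC at Rad21 was largest on the upstream side of the start but was not confined to it. It was 1.02 from 1000 to 500 bp upstream and 0.84 in the last 500 bp, then 0.48 and 0.14 after the TSS, over 4 to 7 probes a bin. In Rbm33 it was 0.40, 0.44, 0.37 and 0.73, largest downstream of the TSS. The bins were not tested. The promoter minus body difference in NPCs was 0.89 for Rad21 and 0.58 for Rbm33, higher than in ESCs by 0.40 ± 0.17 (SE, adjusted p = 0.0938) and 0.28 ± 0.17 (adjusted p = 0.238), and in none of the 5 genes did NPCs and ESCs differ in it at an adjusted p of 0.05. Of all 88 genes, 17.0% were called higher and 12.5% lower. The Rad21 value ran from 0.12 with the slide as a term (adjusted p = 0.682) to 0.49 without array R1 (adjusted p = 0.0535) and was called in 3 of 23 alternatives, without tSBE(6+2)-Vp64 ESCs (0.47, adjusted p = 0.0215) and in both fits with arrays as separate samples. It was 0.19 with the median over probes (adjusted p = 0.525) and 0.22 with the GC trend removed (adjusted p = 0.28). For Rbm33 the lowest value was 0.07, with the GC trend removed (adjusted p = 0.735).

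In the tiles, 4 of 104 were called higher in NPCs and 0 lower, where 22.6% and 6.77% of all tiles were. The largest was upstream of Rad21, at chr15:51824000-51825999 (0.70 ± 0.15, adjusted p = 0.00414). The next were in Rbm33 at chr5:28688000-28689999, which holds exon sequence (0.55 ± 0.16, adjusted p = 0.0206), and in an intron of Rad21 at chr15:51810000-51811999 (0.54 ± 0.17, adjusted p = 0.034). The last, named after its value was seen, was in Rbm33 at chr5:28668000-28669999 (0.51 ± 0.14, adjusted p = 0.0167). All 15 tiles that touch Rad21 and 41 of 51 that touch Rbm33 had a positive difference, of which 1 and 2 were called, where 53.9% of all 2289 tiles were positive. Over the bodies of Rad21 and Rbm33 the difference was positive in 21 of 23 alternatives each, and was never called. It reached 0.39 in Rad21 and 0.33 in Rbm33 with the NPC range rescaled. The direction turned with bright probes (-0.03 in Rad21 and -0.05 in Rbm33) and with the deposited ratios (-0.0072 and -0.03). Even so 1007 of 1215 probes in the Rbm33 region and 386 of 455 in the Rad21 region were below 0 in NPCs, against 1089 and 408 in ESCs, and the bodies of Rad21 and Rbm33 had the lowest and the 5th lowest NPC level of 96.

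The TALE-Vp64 populations were set against eGFP ESCs to see whether activators at Shh came with a change at these genes. None of the 10 features was called, and of all 209 features 0 were called by limma in either direction, with 2 (0.957%) at an unadjusted p under 0.05. The mean difference of the 4 populations ran from -0.41 ± 0.19 (SE) at the Gapdh body (adjusted p = 0.895) to 0.12 ± 0.21 at the Kif18b promoter (adjusted p = 0.895). At the Gapdh body eGFP ESCs had the highest value, -0.49, above -1.02 with tShh-Vp64, -0.91 with tSBE6-Vp64, -0.66 with tSBE2-Vp64 and -0.99 with tSBE(6+2)-Vp64. At the Kif18b promoter tSBE6-Vp64 ESCs were at -0.49, above eGFP ESCs by 0.44, whereas the other 3 populations differed from eGFP by -0.04 to 0.07. With 1 eGFP sample, each single construct was compared as a value only, and the standard errors of the mean differences were 0.17 to 0.21.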

How the data were processed

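The deposited scans of 12 arrays were made by the authors at 532 nm and 635 nm with Agilent Feature Extraction 11.5.1.1, run on each wavelength in single-colour mode, and hold intensity values in mm9. The authors also deposited normalized log2 ratios, 1 column per condition with R1 and R2 combined, used as an alternative. limma is named in the submitters' processing notes, and how these ratios were normalized is not given in the sources used here, since the methods of the study describe other arrays. Their columns had medians of -0.23 to -0.11, so their centring is not known. They were not centred again here, so a level in them is against 0 and not against the median probe.

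Here the log2 ratio of processed signals, Cy5 over Cy3, was centred on the median of each array without loess. Probes with outlier flags in either channel were left out, 328 to 3122 per array. Genes came from GENCODE on the same build, with the outermost start as the TSS. Means over promoters (1000 bp on each side) and gene bodies with at least 5 probes were fitted with limma 3.58.1 (lmFit, eBayes) in R 4.3.3 over all 113 promoters and 96 bodies, with Benjamini-Hochberg adjustment, and tested on simulated data. The fit lends NPCs and eGFP ESCs, with 1 sample each, the spread of the other ESC populations, and the error between cultures of 1 condition was not measured. Slide 1 held eGFP, tShh-Vp64, tSBE6-Vp64 and tSBE2-Vp64 and slide 2 the others, each scanned separately. R1 and R2 correlated at 0.791 to 0.882 across all probes and at 0.626 to 0.878 within the 5 regions. The number of arrays limits the precision. Effects of probe sequence are the same on every array, so no p-value of a level or of promoter minus body covers them. Members, lists and tests were chosen with earlier results of these data known. Named beyond the members are genes of a polycomb list and a list of broad expression, cell type markers, and the 3 called tiles with the largest value in each direction. Alternatives were other normalizations, filters, windows, starts, summaries, sample definitions and tile sizes. No table column was left unmapped.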

Additional observations from a re-analysis of the deposited data

Results flagged for a closer look

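In 15 sets of 5 ESC populations, 2 held a population far from the other 4 by Dixon's test, which chance alone gives for about 1 set in 20. The promoter minus body difference of Gapdh was 0.255165 in eGFP ESCs, below the other 4. The Kif18b promoter was at -0.488646 in tSBE6-Vp64 ESCs, above the other 4. The cause was not tested for either.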

How the results depend on the processing

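Across 23 alternatives, 9 of the 10 levels were called lower in each, the Actb body being the exception. Rescaling the NPC range cannot alter an ESC level. NPC minus ESC of features that were not called changed sign as follows, none of them called. With the deposited ratios it was -0.10 at the Actb promoter, -0.14 at the Actb body, -0.20 at the Gapdh promoter, -0.035 at the bodies of Rbm33 and Kif18b and -0.0072 at the Rad21 body. Over bright probes it was -0.047 at the Rbm33 body and -0.029 at the Rad21 body. At the Actb promoter it was -0.12 with the GC trend removed, and the median over probes gave -0.048 there and -0.039 at the Actb body. A window of 500 bp gave -0.083 at the Actb promoter and -0.017 at the Gapdh promoter, and 2000 bp -0.016 at the latter. At the Gapdh body it was 0.14 after loess, 0.0011 after normexp, 0.0996 with the slide as a term and 0.079 with the NPC range rescaled, which was chosen after seeing the data, as was the RefSeq TSS. Leaving out 1 array number or population gave -0.053 to 0.091 at the Actb promoter (below 0 without array R1 or tShh-Vp64) and -0.13 to 0.0067 at the Gapdh body (above 0 without eGFP). Kif18b promoter minus body was 0.11 with 500 bp.

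The members called higher in NPCs were 0 with the deposited ratios, bright probes or the median, and 1 with the GC trend removed, either other window or the RefSeq TSS, and 1 to 2 with 1 array number or population left out (1 without R1 or tSBE2-Vp64). Members called lower at the promoter than the body were 2 after loess or normexp, with the deposited ratios, bright probes, the GC trend removed, 2000 bp, or arrays as separate samples, and 1 to 2 on leaving out (2 without tSBE6-Vp64). Over all features, the deposited ratios gave 89 called lower in level. These ratios were not centred again, and 0 lies above their column medians of -0.23 to -0.11. Their levels are therefore not against the median probe. Features lower in NPCs were 27 after loess, 38 with the deposited ratios and 30 with arrays as separate samples. Promoter minus body in NPCs against ESCs was called higher in 8 genes after loess or rescaling, 7 with 500 bp or the slide term and 25 with separate arrays, and lower in 6 after loess or with the slide term, 17 with the GC trend removed, 21 with separate arrays and 5 after rescaling. Leaving out gave 7 (without R2) to 14 genes called lower, and 0 to 1 member called higher (1 without tSBE(6+2)-Vp64). The 2 kb tiles gave 737 higher and 915 lower levels, of which 1 and 101 in members, and 517 higher (4 in members) and 155 lower in NPCs. The 5 kb tiles gave 323, 418 (41 in members), 259 (6 in members) and 112. The cause of these shifts was not tested.

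With arrays as separate samples, the replicate block by array number gave the same counts as the fit without it, 30, 25 and 21 over all features, and 2 members lower and 1 higher in the differences of promoter and body. Deviations of same-numbered arrays correlated between conditions at -0.13 to 0.56, which is not over 0.1 in every pair of conditions, so the numbers were not taken to pair the samples, though some pairs of conditions shared a deviation. Dim probes limit Rbm33 and Rad21 most.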
